A study of Saccharomyces cerevisiae with 56 samples.

Results

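The core histone genes of Saccharomyces cerevisiae were taken by name. They are HTA1 and HTA2, which encode histone H2A, HTB1 and HTB2, which encode H2B, HHT1 and HHT2, which encode H3, and HHF1 and HHF2, which encode H4. HTZ1, which encodes the H2A variant H2A.Z, was added. These 9 genes had 1 probe each, among 5197 probes that carried the name of a gene and 6245 probes in all.

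Pairs of H2A and H2B dimers wrap DNA together with a tetramer of H3 and H4 to form the nucleosome. In budding yeast each core histone is encoded by a pair of unlinked copies, and each copy is transcribed divergently from a shared promoter region with a copy of its partner histone. Their transcription is known to peak in S phase, when replicated DNA is packaged, and, at the loci other than that of HTA2 and HTB2, to be repressed outside it by the HIR complex, whereas HTZ1 stands apart from the divergent pairs. In the reference annotation HTA1 and HTB1 were neighbours on opposite strands of chromosome 4, HTA2 and HTB2 on chromosome 2, HHT1 and HHF1 also on chromosome 2, and HHT2 and HHF2 on chromosome 14, and HTZ1 lay on chromosome 15. None lay on chromosome 16, whose distal left arm served as a covariate.

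Levels were measured in a cross between 59A, a haploid MATa derivative of the industrial wine strain EC1118, and S288C, the haploid MATalpha laboratory strain of the reference genome. All strains were grown in a synthetic grape must with 425 mg/L of assimilable nitrogen at pH 3.3 and collected late in stationary phase, when 66 g/L of CO2 had been released, at 70% of the fermentation. The 56 one-colour arrays comprised 12 of the parents, with 2 RNA extracts of each parent and 3 technical arrays of each extract, and 44 of haploid segregants with 1 array each. Values are log2 intensities, on which 5.3 is background and 16 is saturation. Each segregant is 1 strain seen once, so a strain and its array cannot be told apart, and the 44 bear the numbers of 26 asci. In RNA of a whole culture, fewer cells that transcribe a gene and less RNA per cell cannot be told apart. The mating genes fitted the labels of the parents. MFA2, which encodes a-factor, ran from 11.26 to 11.61 in 59A and from 5.39 to 5.51 in S288C, and MF(ALPHA)1, which encodes alpha-factor, ran from 5.98 to 6.22 and from 8.62 to 9.21. 3 segregants had no value for HTA2, 3 for HTB1 and 1 for HHF2. In 2 segregants, 19c and 20a, the mean of the stress genes was the lowest and the second lowest of all, at 9.00 and 9.37 against a median of 11.79, and results that rest on them are given with and without them.

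The first comparison asked which histone genes differed in level between 59A and S288C. One copy of each pair, HTA1, HTB1, HHT2 and HHF1, and also HTZ1, had lower means in 59A, by 0.39 to 0.84 on the log2 scale, and the other copy of each pair lay within 0.13 of S288C. HTB1 alone passed both limits of the study, an adjusted p under 0.01 and a log2 difference above 0.7, so 1 of 9 genes was called, in a table where 25.2% of genes and unnamed probes were called and 12.4% were called lower in 59A. With no minimum difference HTA1, HTB1 and HTZ1 were called, 3 of 9, against 45.4% of the table and 22.5% lower in 59A. When 1 extract was left out, 1 parent had a single extract, and the genes that passed changed with the extract. The difference then ran from -0.43 to -0.35 for HTA1, from -0.98 to -0.70 for HTB1 and from -0.53 to -0.41 for HTZ1. The shares called with all extracts do not set the histone genes apart from the rest of the transcriptome. On 4 of 9 genes, HTA1, HTB1, HHT2 and HTZ1, all 6 arrays of 59A lay below all 6 arrays of S288C, and the arrays of the parents were apart in 62.5% of the table and lower in 59A in 32.1%.

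**Figure D1:**
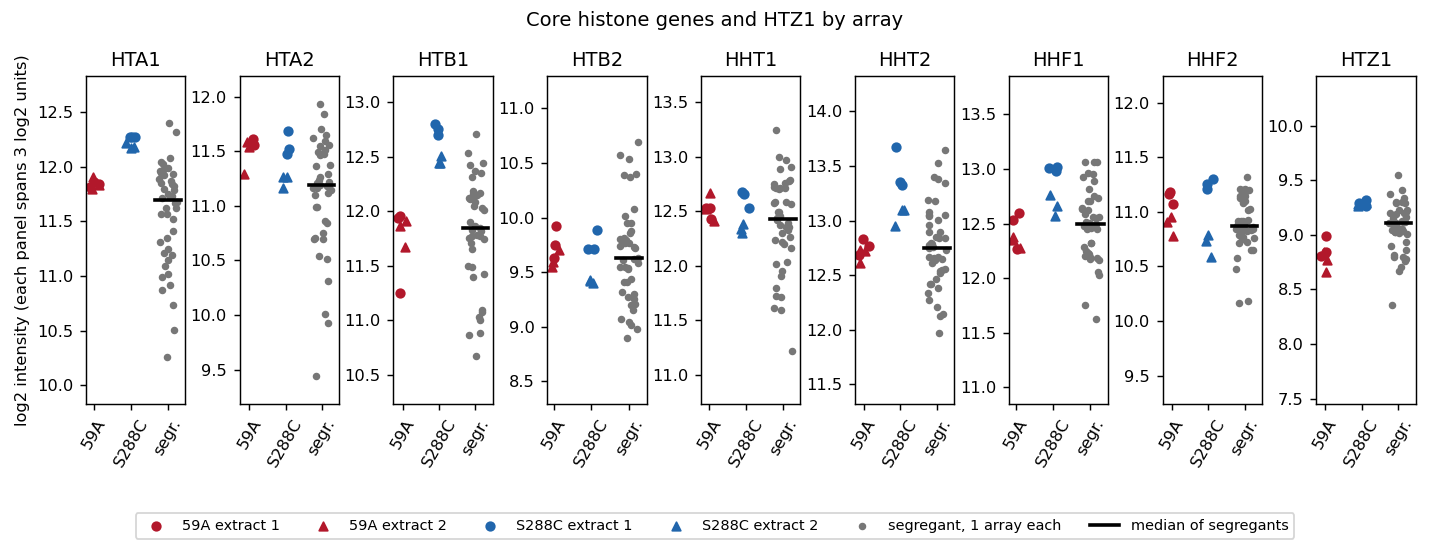
Log2 intensity of the 9 genes on single arrays, by group on the x axis, with 6 arrays of 59A and 6 of S288C (circles for extract 1, triangles for extract 2), 41 to 44 segregants and a bar at the segregants' median. HTA1, HTB1, HHT2 and HTZ1 were lower on every 59A array than on every S288C array, and the segregants of HTA1 and HTA2 reached far below both parents.

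HTB1, one of the H2B copies, had values from 11.25 to 11.96 on the 6 arrays of 59A with a median of 11.88, and from 12.44 to 12.79 with a median of 12.60 in S288C. The groups did not overlap, and 1 array of 59A extract 1 on slide 2 was the lowest. The level was 1.79-fold lower in 59A (log2 difference -0.84 ± 0.11, SE, n = 2 extracts each, adjusted p = 0.0018 in limma's moderated test). Without 59A extract 1 the difference was -0.79 and the adjusted p 0.0104, which ended the call. On the 3 slides that held both parents the difference was -0.84, -1.45 and -0.84.

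HTB2, the second copy of H2B, ran from 9.55 to 9.92 in 59A and from 9.40 to 9.89 in S288C. These ranges overlapped almost fully, with a log2 difference of 0.10 ± 0.13 (SE, adjusted p = 0.56). HTA1, the neighbour of HTB1, ran from 11.80 to 11.91 in 59A and from 12.17 to 12.27 in S288C, without overlap. It was 1.31-fold lower in 59A (log2 difference -0.39 ± 0.07, adjusted p = 0.0052), under the minimum difference. HTA2, the neighbour of HTB2, ran from 11.29 to 11.61 in 59A and from 11.16 to 11.68 in S288C, with a difference of 0.13 ± 0.13 (adjusted p = 0.41).

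For H3 and H4 the lower copies belonged to different loci. HHT2, an H3 copy, ran from 12.62 to 12.83 in 59A and from 12.96 to 13.67 in S288C, and was the only gene of these pairs whose arrays did not overlap. Its difference of -0.53 ± 0.14 did not pass the limit (adjusted p = 0.0225), and without S288C extract 2 it reached -0.73 with an adjusted p of 0.00022, past both limits. HHF1, an H4 copy and the neighbour of the other H3 gene, ran from 12.27 to 12.60 in 59A and from 12.57 to 13.02 in S288C. The difference was -0.43 ± 0.13 (adjusted p = 0.0324), and the ranges met at their ends. HHT1 and HHF2, the remaining copies, overlapped fully and differed by 0.04 ± 0.11 and 0.03 ± 0.20 (adjusted p = 0.80 and 0.91). HTZ1 was between 8.66 and 8.99 in 59A and between 9.26 and 9.32 in S288C, 1.38-fold lower in 59A (log2 difference -0.47 ± 0.08, adjusted p = 0.0035).

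The extracts of S288C differed more than those of 59A did in each of the 8 core genes, but not in HTZ1. All 9 genes were higher in S288C extract 1 than in extract 2, and 7 of them, all core genes except HTA1, by 0.28 to 0.56. The median of all genes tested was 0.01 and the 90th percentile 0.21. HHF2 was the widest, at 11.25 in extract 1 and 10.70 in extract 2, while its 3 technical arrays had an SD of 0.04 and 0.10. HTA1 and HTZ1 differed by 0.08 and 0.01 between these extracts. In 59A the same differences between extracts ran from -0.10 for HTB1 to 0.26 for HHF2, with HTZ1 at 0.12. With 2 extracts of a parent the spread of the core genes in S288C rests on this 1 contrast.

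The difference between the copies of a pair was then compared between the parents, since it is taken within an array and is not moved by a change common to both copies. Its value in a strain includes the different brightness of the probes, so only the change between strains is read. HTB1 minus HTB2 ran from 1.33 to 2.31 on the arrays of 59A and from 2.81 to 3.09 on those of S288C, without overlap, a change of -0.94 ± 0.10 (SE, adjusted p = 0.00086). It was the only one of 4 differences past both limits, against 25.2% of the table. HHT1 minus HHT2 ran from -0.40 to 0.05 in 59A and from -1.14 to -0.62 in S288C, a change of 0.56 ± 0.08 (adjusted p = 0.0025). HTA1 minus HTA2 changed by -0.52 ± 0.11 (adjusted p = 0.0086), with 1 array of 59A, at 0.61, inside the range of S288C, which began at 0.59. HHF1 minus HHF2 changed by -0.46 ± 0.10 and missed the limit (adjusted p = 0.0109), although its arrays did not overlap, at 1.20 to 1.50 in 59A and 1.71 to 2.18 in S288C. With no minimum difference 3 of 4 were called, against 45.4% of the table, and leaving out either extract of 59A left the call of HTB1 minus HTB2 alone. The coding sequences of the copies are nearly alike, and how much signal each probe takes from the other copy was not tested.

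**Figure D2:**
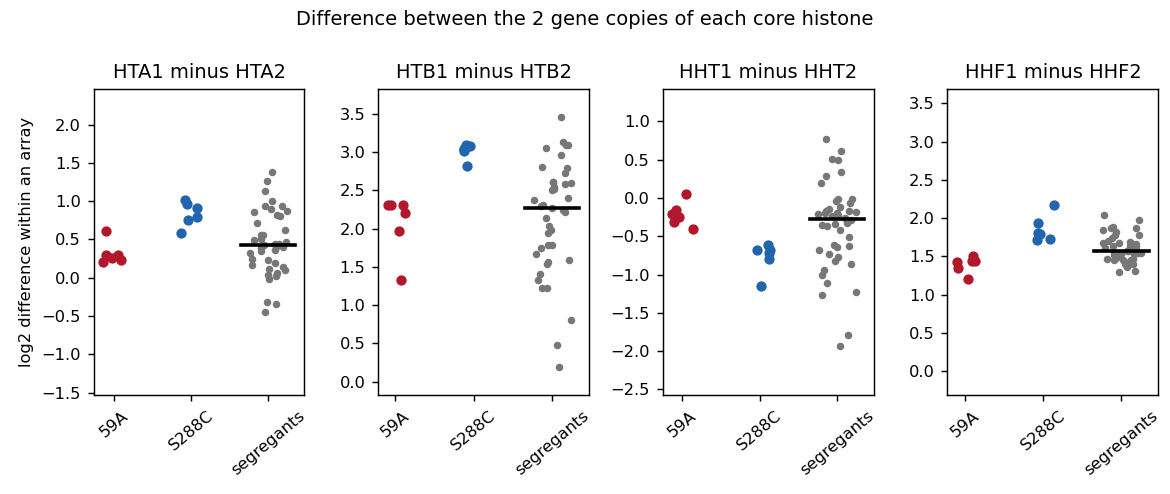
Log2 difference between the copies of each histone within an array, for 6 arrays of 59A, 6 of S288C and 41 to 44 segregants with their median as a bar (each panel spans 4 log2 units). HTB1 minus HTB2 was lower in 59A than in S288C on every array and ran from 0.19 to 3.46 over segregants, whereas HHF1 minus HHF2 stayed between 1.30 and 2.04.

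Genes that act on histones were counted by the same limits between the parents, by which 25.2% of the table was called and 12.4% was called lower in 59A. In either direction none of the 3 lists had a larger share called than the table. The share called lower exceeded 12.4% only in the list of H2A.Z exchange. The lists were not tested as sets, so the counts are no result about them. Among 12 regulators of histone transcription 0 were higher in 59A and 1 was lower, YTA7, which encodes an AAA ATPase at histone loci (log2 difference -0.86 ± 0.10, adjusted p = 0.00094). The next by p were ASF1, a chaperone of H3 and H4, at 0.61, RTT106, another such chaperone, at 0.41, and SWI4, the DNA-binding subunit of SBF, at -0.25, none past both limits. Of 18 histone chaperones and importers 2 were higher in 59A, HAT2 at 0.76 and HIF1 at 0.79, both partners of a histone acetyltransferase, and 2 were lower, CAC2, of the chromatin assembly factor CAF-1, at -1.39, and POB3, of FACT, at -1.17. Of 14 genes for the exchange of H2A.Z into nucleosomes 3 were lower and 0 higher, namely BDF1 at -1.42, VPS72 at -1.02 and SWC5 at -0.73, all of the SWR1 complex. The linker histone gene HHO1 and CSE4, for the centromeric variant of H3, were not called, at -0.21 and -0.06. The medians of these lists were -0.07 for the regulators, 0.16 for the chaperones and -0.15 for the H2A.Z genes, against -0.01 for all tested.

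Over the segregants the H2A and H2B genes spread more widely than those of H4 or HTZ1. HTA2 ran from 9.44 to 11.93 with a median of 11.19 in 41 segregants, a 5.63-fold range with an SD of 0.53. HTA1 ran from 10.26 to 12.40 with a median of 11.69 (SD 0.47), HTB1 from 10.67 to 12.71 with a median of 11.84 (SD 0.50) and HTB2 from 8.89 to 10.69 with a median of 9.63 (SD 0.45). The SD of these 4 genes exceeded that of 67.6% to 76.7% of the genes with complete values, whose median SD was 0.35. HHT1 and HHT2 followed, with an SD of 0.43 and 0.38, then HHF1 with 0.33. HHF2, from 10.16 to 11.31, and HTZ1, from 8.35 to 9.55, were the narrowest, with an SD of 0.25 and 0.22, above 23.9% and 17.7% of the genes. Without 19c and 20a the SD was 0.42 for HTA1, 0.43 for HTA2, 0.45 for HTB1, 0.44 for HTB2 and 0.40 for HHT1, so HTA2 was no longer the widest.

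The study's measure of heritability sets the variance over segregants against that of the parental arrays. By it 99.2% of the variance of HTA1 over segregants exceeded the variance of the arrays, 90.4% for HTA2, 79.9% for HTB1, 85.1% for HTB2, 90.5% for HHT1, 75.5% for HHT2, 74.3% for HHF1 and 88.1% for HTZ1, against a median of 92.7% for all genes. HHF2 had 0.0853%, since its SD over segregants hardly exceeded that of its parental arrays, which was also 0.25 and included the gap between the S288C extracts. In 27 of 44 segregants HTA1 lay below the lowest parental array, at 11.80, and in 2 above the highest. HHT1 lay below the parents in 16 and above them in 14, and HTB2 below in 12 and above in 10. HTB1 lay within the parental range in 34 of 41 and above it in 0. These ranges rest on 2 extracts of each parent. The SD of the parental arrays was 0.042 for HTA1, against a median of 0.093 for the genes with complete values. How many segregants lay outside the parents for other genes was not determined.

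The mean of the segregants was set against the midpoint of both parents. HTA1 had the largest difference, -0.47 ± 0.24 (SE), followed by HTB1 at -0.38 ± 0.25 and HTA2 at -0.37 ± 0.26. The other 6 lay between -0.22 and 0.02. None of the 9 was called at an adjusted p under 0.01, and limma called 0.14% of the table. At an unadjusted p under 0.05 none of the 9 and 1.65% of the table passed, and HTA1 had an unadjusted p of 0.052. The fit has 1 spread for all strains, so the 4 parental extracts were taken to vary like the segregants. For HTA1 the SD was 0.47 over segregants and 0.0032 and 0.056 between the extracts of 59A and S288C. The test could thus call few genes, and its count does not show that the segregants lay at the midpoint.

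Several of the lowest values lay in the same segregants. In 19c HTA1, HTA2 and HTB1 were the lowest of all segregants, at 10.26, 9.44 and 10.67, and HTZ1 was the highest, at 9.55. In 20a HTB1 was at 10.86 and HHT1 at 11.59, the second lowest of each, while HHT2, at 13.38, was among the highest. In 28b HHT1 was the lowest, at 11.22, and HTA1 the second lowest, at 10.51, while HTB2 was the highest, at 10.69. Low H2A and high HTB2 thus occurred in the same strain. In 31b HHT2, HHF1 and HHF2 were the lowest of all, at 11.97, 11.63 and 10.16, and HTZ1 the second lowest, at 8.67. In 7a HTZ1 was the lowest, at 8.35, and HHF1 and HHF2 the second lowest, at 11.75 and 10.18. Segregant 22b was the highest in HTA1, HTA2 and HTB1 alike. The mean of the genes on the distal left arm of chromosome 16 was 9.50 in 19c, 9.38 in 20a and 9.52 in 28b. It was 8.73 in 31b, 8.68 in 7a and 8.59 in 22b. The study reports a second copy of this arm in some of the segregants, which the sample labels do not mark. The part of the arm in these values was not tested.

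Histone genes were then compared with each other over the segregants, as 36 pairs with permutation tests of Pearson's r, adjusted over the 36. 10 pairs passed an adjusted p under 0.01, 9 with a positive and 1 with a negative r. By the permutation test of Spearman's rho 3 of these passed, HHF1 with HHF2, HTA1 with HHF1 and HTA2 with HTB1, and the other 7 had an adjusted p of 0.0152 to 0.100. The points of a pair share an array and its normalization, which was not separated from shared regulation. The closest pair was the H4 copies HHF1 and HHF2 (r = 0.86, rho = 0.82, n = 43, permutation p = 1e-05, the smallest that 100000 permutations can give, adjusted p = 7.2e-05 for r), followed by HTA2 with HTB1 (r = 0.71, rho = 0.53), the H2A copies HTA1 and HTA2 (r = 0.65, rho = 0.47), the neighbours HTA1 and HTB1 (r = 0.63, rho = 0.46) and HTA1 with HHF1 (r = 0.62, rho = 0.66), all 4 with an adjusted p of 7.2e-05 for r by permutation. HTA1 with HHT1, at 0.56, HHF2 with HTZ1, at 0.50, HHT2 with HHF2, at 0.45, and HTA1 with HHF2, at 0.45, also passed. With the 2 segregants most distant from the median of the first gene left out, HTA1 with HHT1 (0.40), HHF2 with HTZ1 (0.22) and HHT2 with HHF2 (0.31) no longer passed, so these rest on few strains. Without 19c and 20a HHT2 with HHF2 (0.42) was lost and HHF1 with HTZ1 (0.47) passed.

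**Figure D3:**
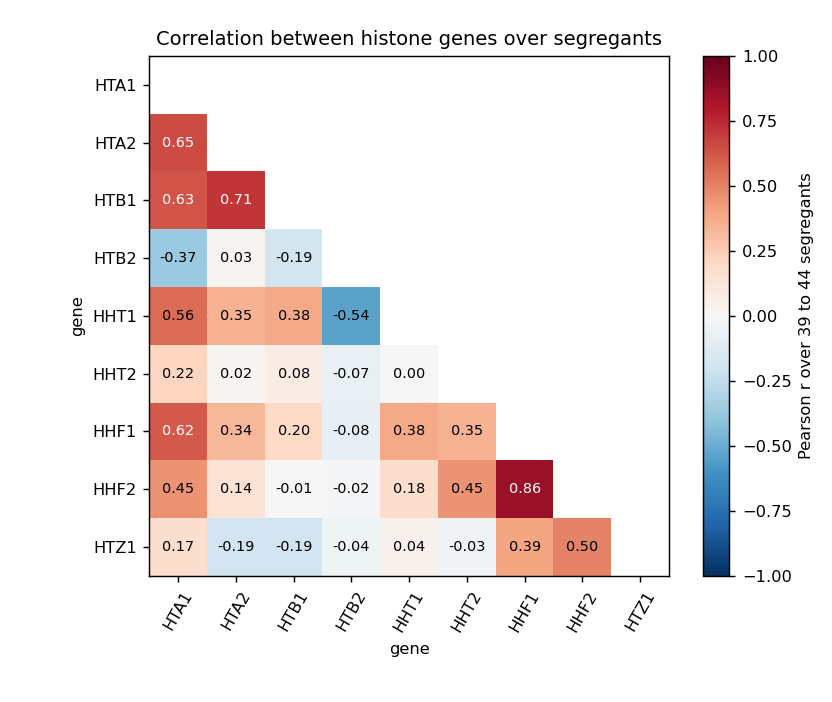
Pearson r over 39 to 44 segregants for the 36 pairs of the 9 genes, with colour and number giving r. The H4 copies had the highest r, 0.86, HTB2 had its lowest with HHT1, -0.54, and the copies of H3 were at 0.00.

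The copies of a histone did not share 1 pattern. The H4 and H2A copies were positively correlated over the segregants. The H2B copies HTB1 and HTB2 had an r of -0.19 (rho = -0.18, adjusted permutation p = 0.395) and the H3 copies HHT1 and HHT2 of 0.00 (adjusted permutation p = 0.98). For HHF2 the SD was 0.25 both over segregants and over parental arrays, and HHF1 and HHF2 differed by 0.34 and 0.56 between the S288C extracts. Differences between strains and between extracts thus cannot be told apart in the r of the H4 copies. How much signal each probe takes from the other copy was not tested. Among the 4 divergent neighbours r was 0.63 for HTA1 and HTB1, 0.45 for HHT2 and HHF2, 0.38 for HHT1 and HHF1 and 0.03 for HTA2 and HTB2. The median was 0.41 for neighbours, 0.32 for copies, 0.19 for the other 20 pairs of core genes and 0.01 for the 8 pairs with HTZ1. These medians were not tested against each other, since pairs share genes.

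HTB2 ran against the H3 gene HHT1 (r = -0.54, rho = -0.47, adjusted permutation p = 0.0013 for r and 0.0152 for rho), with a negative r within each of the 7 slides, from -0.81 to -0.23. Without 19c and 20a r was -0.50 (adjusted p = 0.0041 by permutation), and with the 2 segregants most distant from the HTB2 median left out it was -0.40 (adjusted p = 0.033), past the limit no longer. The pair of HHF1 with HHF2 was positive within all 7 slides, at 0.40 to 0.98. Slide 2, with 3 values of HTA2, was not counted for the pairs of HTA2. On the other slides HTA2 with HTB1 was positive, at 0.20 to 0.97, whereas HTA1 with HTA2 was negative on 1. The differences between copies also varied over the segregants. HTB1 minus HTB2 ran from 0.19 in 28b to 3.46 in 20b with a median of 2.27, and HHT1 minus HHT2 from -1.93 in 21c to 0.78 in 7b with a median of -0.27. HHF1 minus HHF2 had an SD of 0.17 over segregants, against 0.74 for the H2B difference, 0.58 for H3 and 0.42 for H2A.

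The relation to the genes of the cytosolic ribosome was tested next. Ribosomal protein genes make up much of the transcription of growing cells and fall together when growth stops. Their mean was taken over 108 genes with values in all 44 segregants, and it ran from 8.97 to 11.53 with an SD of 0.54. The H2A genes fell as this mean rose. HTA1 had a slope of -0.49 ± 0.11 log2 units for each log2 unit of the ribosomal mean (SE, adjusted p = 0.00042 in limma's regression over the whole table) and HTA2 one of -0.53 ± 0.12 (adjusted p = 0.00094). 2 of 9 genes were called, in a table where 19.5% were called and 8.76% were called as falling (19.2% with genes that lack some values), so the share of histone genes called in either direction was close to that of the table.

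**Figure D4:**
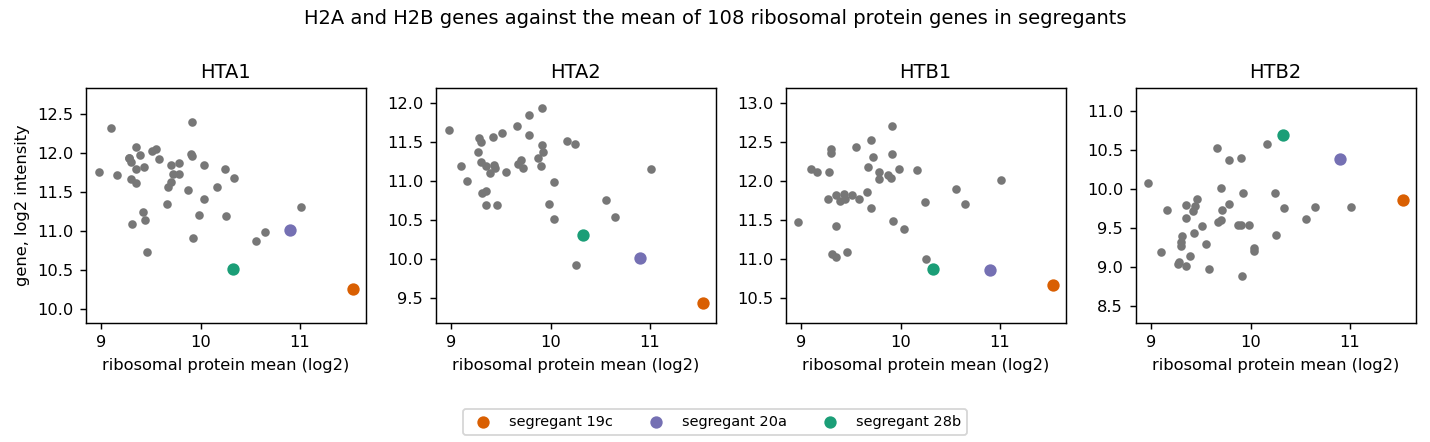
Log2 intensity of HTA1, HTA2, HTB1 and HTB2 (y axes, each spanning 3 log2 units) against the mean of 108 ribosomal protein genes (x axis) in 41 to 44 segregants, with 19c, 20a and 28b coloured. HTA1 and HTA2 fell with the mean, with an r of -0.57 and -0.56, and 19c lay at the end of both plots.

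By permutation over 9 genes and 5 lists, 45 relations in all, the r of HTA1 was -0.57 (rho = -0.46, n = 44, adjusted permutation p = 0.00081 for r and 0.0141 for rho) and that of HTA2 -0.56 (rho = -0.34, n = 41, adjusted permutation p = 0.00185 and 0.111). The rank correlations did not pass 0.01. The other genes were HTB1 at -0.32, HHT1 at -0.34, HHF1 at -0.34, HHF2 at -0.25, HHT2 at -0.04 and HTZ1 at 0.04, and HTB2 had the opposite sign, 0.35 (adjusted permutation p = 0.0548). Of the 108 ribosomal genes 107 had a negative r with HTA1, 107 with HTA2 and 107 with HHF1. The count was 105 with HHT1, 103 with HTB1 and 102 with HHF2, against 70 with HHT2, 35 with HTZ1 and 1 with HTB2. The 108 genes make up the ribosomal mean, so these counts repeat the sign of its r and are no separate evidence. The share of all genes with a negative r to each histone gene was not determined. A lower r with the ribosomal mean than that of HTA1 was found for 2.93% of the genes with complete values, and a lower one than that of HTB2 for 83.7%.

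The calls of HTA1 and HTA2 rested in part on 19c and 20a, which had ribosomal means of 11.53, the highest, and 10.90, the third highest, and low H2A. Without these segregants the slope of HTA1 was -0.39 (adjusted p = 0.0453) and that of HTA2 -0.29 (adjusted p = 0.207), so none of the 9 was called, and 6.1% of the table was. The r of HTA1 was then -0.42 and that of HTA2 -0.31, while that of HHF2 went from -0.25 to -0.42. Without 19c and 26c, whose ribosomal means were most distant from the median, r was -0.46 for HTA1 and -0.45 for HTA2, and none was called. Within single slides the r of HTA1 was negative on all 7, from -0.89 to -0.23, and that of HTA2 on 6. With slide as a block both slopes were called, at -0.58 and -0.59. Segregants 19c and 20a were both on slide 5, where the r of HTA1 was -0.89, so the block keeps their contrast with the other arrays of that slide. The mean of the ribosome biogenesis genes was also high in 19c and 20a, at 9.07 and 8.33 against a median of 7.61, and that of the stress genes low. The part of these genes in the result was not tested.

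Since HTB1 and HTB2 had slopes of opposite sign, -0.29 ± 0.13 and 0.29 ± 0.12, the difference between them was tested as well. HTB1 minus HTB2 fell with the ribosomal mean by 0.59 ± 0.19 and missed the limit (adjusted p = 0.0139), and without 19c and 20a the slope was -0.37 (adjusted p = 0.337). The differences of the other pairs had slopes of 0.03 for H2A, -0.24 for H3 and -0.10 for H4, none called.

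4 further lists were set beside the ribosomal one. With the genes of ribosome biogenesis, which process ribosomal RNA, HTA1 (slope -0.83 ± 0.15) and HTA2 (-0.83 ± 0.18) were called, 2 of 9, where 19.3% of the table was. Without 19c and 20a HTA1, HHF1 and HHF2 were called, at -0.75, -0.56 and -0.54, 3 of 9 against 9.79%. HTB1 minus HTB2 fell with this mean by 0.90 ± 0.27 (adjusted p = 0.0090), and without these segregants by 0.64 ± 0.34 (adjusted p = 0.216). With the genes of the general stress response 4 of 9 rose, HTA1, HTA2, HTB1 and HHT1, at slopes of 0.35 to 0.53, where 34.8% of the table was called. HTA2 was the closest (r = 0.72, rho = 0.52), and HHT1 (0.47 ± 0.13, adjusted p = 0.0074) was the only call without 19c and 20a, where 10.7% of the table was called.

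**Figure D5:**
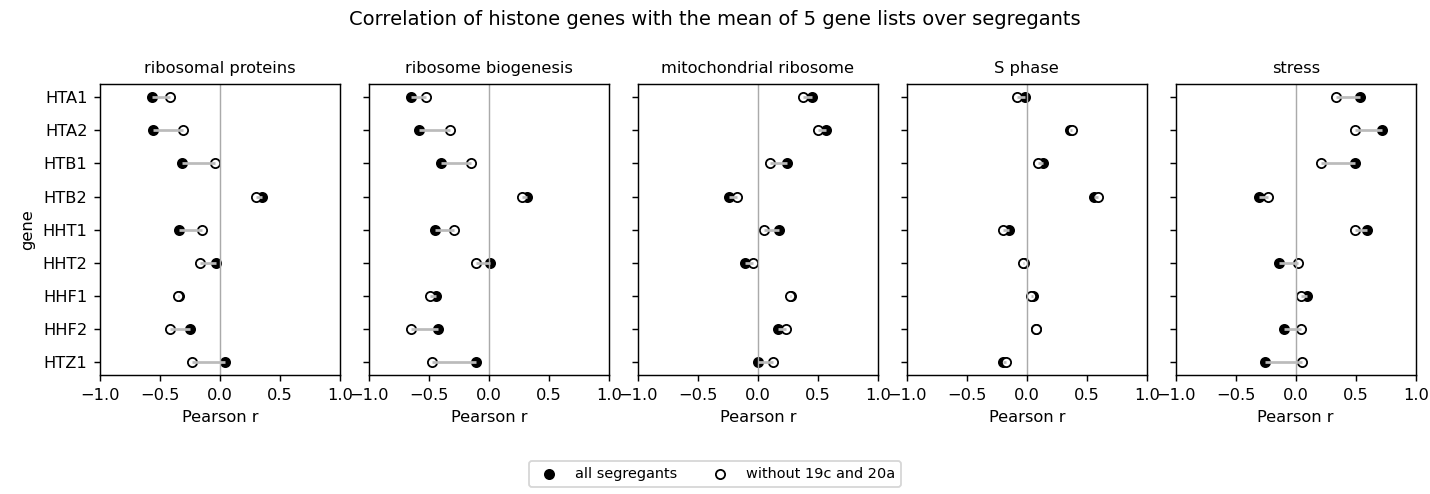
Pearson r of each of the 9 genes with the mean of 5 gene lists, over all 41 to 44 segregants (filled) and without 19c and 20a (open). HTA1 and HTA2 were negative with both cytosolic ribosome lists and positive with the stress list, HTB2 was positive with the S phase list, and r of HTA2 with the stress list went from 0.72 to 0.49 without these segregants.

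With the mitochondrial ribosome, whose mean had an r of -0.53 with that of the cytosolic one, HTA2 alone was called by limma (slope 1.10 ± 0.25, adjusted p = 0.0022), 1 of 9 against 8.26% of the table, and it missed the limit of limma without 19c and 20a (0.82 ± 0.23, adjusted p = 0.0219), where 3.55% of the table was called. By permutation HTA2 passed with all segregants (r = 0.56, adjusted p = 0.00097) and without 19c and 20a (r = 0.50, adjusted p = 0.00885), and HTA1 passed with all of them (r = 0.45, adjusted p = 0.00847) but not without these (r = 0.38, adjusted p = 0.0581). With the replication and G1 to S genes of the S phase list none of the 9 was called by limma, and 0% of the table was, while 390 genes passed an unadjusted p under 0.05. HTB2 was the histone gene closest to that list (r = 0.56, rho = 0.59, adjusted permutation p = 0.00079 over the 45 relations), with a slope of 3.27 ± 0.74 and an adjusted p of 0.144 over the whole table. Its r was 0.59 without 19c and 20a and was negative on 1 of 7 slides. HTA2 followed at 0.36 and the other 7 lay between -0.20 and 0.13, HTA1 at -0.02. The S phase mean had an SD of 0.08 over segregants, the smallest of the 5 lists. Of the 45 relations rho passed in 2, HTA2 with the mitochondrial ribosome and HTB2 with the S phase list, and r passed in 13, among them HHT1 and HHF1 with ribosome biogenesis (adjusted permutation p = 0.00876 and 0.00847), which limma did not call.

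The genes whose pattern was most like the histone genes were found by r over the segregants among 4293 named genes with complete values, as a description. For the mean of the 8 core genes, each centred and scaled, the 10 highest were PIB1 (r = 0.80), PEP12, ATG8, UBC5, BET1, SDS3, IWR1, CTL1, MDM32 and FYV10 (0.72). PIB1 is a ubiquitin ligase of the endosome and vacuole, PEP12 the endosomal t-SNARE and ATG8 the ubiquitin-like protein of autophagosomes. The 10 lowest were YTM1 (r = -0.80), PAC10, THI80, ILV1, YVH1, NOG1, NIP7, BUD17, SEC12 and TIF3 (-0.75), of which YTM1, NOG1 and NIP7 act in assembly of the large ribosomal subunit. Without 19c and 20a PIB1 was at 0.78 and YTM1 at -0.81. Of the 108 ribosomal protein genes 106 had a negative r with the core mean, against 49.1% of the 4293 genes. Their median was -0.41 against 0.01 for all genes, and they ranged from RPS1A at -0.66 to RPS30B at 0.36. The core mean had an r of -0.45 with the ribosomal mean, and of -0.33 without 19c and 20a. The 108 genes make up that mean, so their signs and median repeat this r and are no separate evidence.

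For single genes the 3 with the highest r were PIB1, ATG8 and FYV10 for HTA1 (0.82 to 0.78), PET111, BCS1 and STF2 for HTA2 (0.83 to 0.82), KRE9, AI2 and COX9 for HTB1 (0.73 to 0.72), GPP1, BSC6 and PTA1 for HTB2 (0.64 to 0.59), YPI1, YJL070C and SWI4 for HHT1 (0.77 to 0.75), IDP3, CDC16 and PML1 for HHT2 (0.61 to 0.59), APJ1, CCL1 and PEP12 for HHF1 (0.73 to 0.71), APJ1, UBC7 and RCN2 for HHF2 (0.72 to 0.67) and PCL6, YNL208W and RCN2 for HTZ1 (0.71 to 0.65). APJ1, which encodes a J-domain chaperone, led for both H4 copies, and RCN2, a regulator of calcineurin, was shared by HHF2 and HTZ1. Among these 3 highest genes none was shared between the copies of H2A, of H2B or of H3, and longer lists were not compared. SWI4, one of the listed regulators, was the third for HHT1. Among the 12 regulators its r with the core mean was 0.60, with HIR1, a subunit of the HIR corepressor, also at 0.60 and ASF1 the lowest at -0.49. The other HIR subunits did not share the value of HIR1, with HPC2 at 0.48, HIR3 at 0.02 and HIR2 at -0.28. The share of all genes with an r as high was not determined.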

How the data were processed

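Levels of RNA were measured in 12 parental and 44 segregant arrays on 7 slides of 8. The deposited values are log2 spot medians, which the authors read with GenePix and put through quantile normalization across their whole set of arrays (limma, R 2.13.1). The array count that the study's methods give for this set does not match the number listed here, and the reason is not known. Arrays thus share 1 distribution (medians 8.24 to 8.28), and a change of total RNA leaves no trace. Array number limits the precision, and segregants have 1 array each. Segregant results for HTA2, HTB1 and HHF2, which have missing values, come from a table of genes with at least 38 of 44 values, chosen after seeing the data; the others come from genes with complete values.

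The 3 technical arrays of an extract were averaged. The parents (5969 genes and unnamed probes), the midpoint (5016) and the regressions over segregants (5160) were fitted with limma 3.58.1 in R 4.3.3, with Benjamini-Hochberg adjustment over each whole table. The limits for a call were an adjusted p of 0.01 and, between parents, a log2 difference of 0.7 as in the study's methods. The titles give extracts of both parents the same tags and numbers but do not say that these mark a shared batch or day, so the main test has no block, and p-values of the parents measure the spread of 2 extracts. Correlations used 100000 permutations (two-sided, seed 1) in numpy 2.4.6 under Python 3.11.15. The scripts were tested on simulated data.

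The genes named were the 9 members, genes of the histone regulator, chaperone, H2A.Z and other histone lists that were called, the 4 regulators with the smallest p, the 10 highest and 10 lowest genes by r with the core mean, the 3 highest for each member, and the highest and lowest ribosomal gene. The members and lists were chosen with earlier results of these data known. 134 of 137 ribosomal genes had a probe. The alternatives were each extract left out, arrays as samples, slide and replicate blocks, a background filter, another scaling, other summaries of the ribosomal genes, the chromosome 16 arm as a covariate and segregants left out. The genome build of the probes is not given in the sources used here, and no sequence was used.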

Additional observations from a re-analysis of the deposited data

Results flagged for a closer look

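Among the 6 arrays of 59A the value of HTA2 on 1 array of extract 2, at 11.29, lay far from the other 5, which ran up to 11.61. Chance marks about 1 in 20 groups in this way, and 1 of the 18 groups of arrays tested, 9 genes in each parent, was marked.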

How the results depend on the processing

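Between the parents the number of histone genes called was 1 and stayed so with arrays as samples, with slide as a block, with the background filter and with another scaling. It ran from 0 to 2 when an extract was left out, losing HTB1 without 59A extract 1 (-0.79, adjusted p = 0.0104 in limma's test) and gaining HHT2 without S288C extract 2, and was 3 with no minimum difference, when 2707 of the table were called instead of 1503 (1398 to 1610 without an extract). With the replicate number as a block, a replicate block, 1 of 9 was called, and with no minimum difference 5 of 9, HHT2 and HHF1 being added, where 3436 of the table were called; same-numbered extracts deviated together (r = 0.437), which 2 pairs cannot establish as pairing, and the copy difference of HHF1 and HHF2 passed 0.01 there. Of the copy differences, 1 of 4 passed both limits, and 2 with slide as a block and 3 with no minimum. Genes that were not called changed sign when an extract was left out: HTA2 ran from -0.035 to 0.30, HTB2 from -0.077 to 0.27, HHT1 from -0.10 to 0.17 and HHF2 from -0.25 to 0.31, and HHF2 was -0.064 with slide as a block. Against the midpoint 0 of 9 were called in each setting, by a test that could call few genes; HTB2 turned to -0.0017 and HTZ1 to -0.00045 without 19c and 20a, and without a parental extract HTB2 ran from -0.068 to 0.11, HTZ1 from -0.014 to 0.047 and HHF2 up to 0.027 from -0.25.

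The 2 calls on the ribosomal mean were kept with slide as a block, without 9c and 13b, with another scaling, with the median or all genes of the list and with the chromosome 16 arm as covariate. They fell to 0 without 19c and 20a (315 of the table called instead of 1005), without 28b as well (318), without the 2 farthest segregants (528) and with segregants averaged by ascus number (457), where fewer samples entered. HTB1 turned to 0.042 without 19c, 20a and 28b. HTZ1 had slopes of -0.020 with slide as a block, -0.11 without 19c and 20a, -0.13 without 28b as well, -0.090 without the 2 farthest and -0.055 by ascus. The 11 of 36 relations with the other lists that passed by permutation became 6 without 19c and 20a, and the 10 pairs became 6 without the 2 farthest segregants and were 10 without 19c and 20a. Other causes of these changes were not tested.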
